A study of Mus musculus with 6 samples.

Results

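The genes described here encode the proteins of the cytosolic ribosome, and the data are the ATAC-seq peaks at their promoters in haploid mouse embryonic stem cells (mESCs). The members were taken by name: autosomal protein-coding genes of the GENCODE annotation for mm9 called Rpl or Rps followed by a digit, or Rplp0, Rplp1, Rplp2 or Rpsa, without names that start with Rps6k or contain -ps. This gave 81 of 21410 autosomal coding genes on 18 chromosomes, namely 42 genes of the large subunit, 30 of the small subunit, 8 paralogues with a ribosomal protein name, and Rps19bp1, which encodes a regulator of Sirt1 and no ribosomal protein. A promoter peak was a peak whose midpoint lay within 1000 bp of the transcription start site (TSS) of a coding transcript of the gene.

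ATAC-seq reports open chromatin, because the Tn5 transposase inserts its adapters where DNA is free. The study's 6 sample records cover 3 lines, all haploid mESCs of mixed genomic background with a doxycycline-inducible Xist transgene, kept in serum with LIF: HATX WT, with Spen intact, and clones 2 and 3 of Spen KO, in which, per the study, all or most of the Spen gene was deleted. Each line has a record without doxycycline and a record with 2 ug/mL for 48 hr. Neither peak list states whether doxycycline had been added. The list for WT and the list for Spen KO clone 3 were used, and Spen KO clone 2 was not analysed here. Each list combines 2 replicates that the study's methods call technical. Whether they come from the same doxycycline state is not stated, and with a record for either state in each line a replicate and a doxycycline state cannot be told apart. The Spen KO list comes from 1 clone, so that genotype, clone and library cannot be told apart. In WT 21698 peaks were autosomal, in Spen KO clone 3 22457 were, and the read depth behind them is unknown. Spen itself, on chr4:141023805-141094512, had 1 promoter peak in each list. The WT peak had replicate values of 15.7 and 18.7, and the Spen KO clone 3 peak had 20.5 and 13.1, and both peaks covered the TSS, so that the start of the gene was present in the Spen KO clone 3 list and these peaks do not check the deletion. Of 10 stem cell markers, 4 had a promoter peak in each list. Fgf4, Utf1 and Zfp42 had one in both lists, Sox2 in the WT list only and Klf4 in the Spen KO clone 3 list only, while Pou5f1, Nanog, Esrrb, Tdgf1 and Dppa5a had none, so that defining markers of the labelled cell type are absent among promoter peaks. Of 8 markers of other cell types, Gata4 had a peak in the WT list only and Neurod1 in the Spen KO clone 3 list only, and the other 6 had none.

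Ribosomal protein genes are transcribed at high rates in every dividing cell, and their products are needed in nearly equal amounts. Their promoters are known as short, CpG-rich regions that mostly lack a TATA box. Transcription starts within a run of pyrimidines, which leaves the mRNA with a 5′ terminal oligopyrimidine (TOP) tract through which the mTOR pathway controls translation, and ETS family factors of the GABP kind are among their known activators.

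The promoters below were each picked for 1 of these features, the ETS core or the pyrimidine run, in genes that differed in their peaks. Sequences are from the mm9 genome, run 5′ to 3′ on the strand of the gene, and end 20 bases into the representative transcript, which is the coding transcript with the longest coding sequence. The first 8 start 100 bases before the TSS and have the ETS core CCGGAAG, or its reverse complement, in capitals. Rpl37, Rpl15, Rpl24 and Rps21 had a peak in both lists, Rpl26 in the WT list only, and Rpl8, Rps18 and Rps25 in neither list.
Rpl37, chr15:5066513-5066632, plus strand: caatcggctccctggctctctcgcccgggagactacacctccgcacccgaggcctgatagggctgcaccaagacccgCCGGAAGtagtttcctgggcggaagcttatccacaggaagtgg
Rpl15, chr14:19103562-19103681, minus strand: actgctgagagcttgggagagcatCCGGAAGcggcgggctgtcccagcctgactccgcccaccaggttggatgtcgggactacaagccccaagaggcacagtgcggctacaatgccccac
Rpl24, chr16:55973817-55973936, plus strand: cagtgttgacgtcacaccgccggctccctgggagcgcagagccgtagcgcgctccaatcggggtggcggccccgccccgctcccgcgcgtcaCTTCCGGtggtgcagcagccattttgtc
Rps21, chr2:179991982-179992101, plus strand: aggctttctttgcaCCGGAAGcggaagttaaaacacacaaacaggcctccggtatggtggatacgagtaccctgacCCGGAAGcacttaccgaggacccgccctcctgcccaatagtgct
Rpl26, chr11:68714985-68715104, plus strand: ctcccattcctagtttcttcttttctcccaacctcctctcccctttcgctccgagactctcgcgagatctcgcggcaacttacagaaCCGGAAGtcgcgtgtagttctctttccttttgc
Rpl8, chr15:76734401-76734520, plus strand: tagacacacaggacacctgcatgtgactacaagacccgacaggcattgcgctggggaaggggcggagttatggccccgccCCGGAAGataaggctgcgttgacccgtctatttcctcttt
Rps18, chr17:34092643-34092762, minus strand: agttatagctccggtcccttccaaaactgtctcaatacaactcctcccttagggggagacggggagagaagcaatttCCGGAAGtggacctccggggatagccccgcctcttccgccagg
Rps25, chr9:44215697-44215816, plus strand: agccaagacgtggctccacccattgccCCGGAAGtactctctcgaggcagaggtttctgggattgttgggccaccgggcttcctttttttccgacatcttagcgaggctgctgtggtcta

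The core was thus found both beside high-ranking peaks and where no peak was called. It began 23 bases before the TSS in Rpl37 and also 23 bases before it in Rps18. The next 3 promoters start 40 bases before the TSS and were chosen for long pyrimidine runs at the TSS, which are in capitals. Rps2 had a peak in the WT list only, Rpl34 in both lists, and Rps23 in neither.
Rps2, chr17:24857156-24857215, plus strand: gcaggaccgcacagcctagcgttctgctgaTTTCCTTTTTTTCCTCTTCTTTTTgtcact
Rpl34, chr3:130433236-130433295, minus strand: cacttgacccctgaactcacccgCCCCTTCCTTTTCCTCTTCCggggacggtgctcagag
Rps23, chr13:91062738-91062797, plus strand: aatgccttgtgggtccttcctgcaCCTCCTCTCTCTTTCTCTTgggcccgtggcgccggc

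The run was 24 bases long in Rps2, 20 in Rpl34 and 19 in Rps23.

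Of the 81 genes, 45 (55.6%, 95% Wilson interval 44.7 to 65.9) had a promoter peak in the WT list, where 44.7% of all autosomal coding genes had one. In the Spen KO clone 3 list 38 genes (46.9%, 36.4 to 57.7) had one, beside 40.7% of all coding genes. A peak was present in both lists at 34 genes (42.0%, beside 36.4% of all coding genes), in the WT list only at 11 (13.6%, beside 8.35%), and in the Spen KO clone 3 list only at 4 (4.94%, beside 4.36%). At 32 genes (39.5%, 29.6 to 50.4) neither list held a promoter peak, which was so for 50.9% of all coding genes. These intervals cover counting error only, and presence in a list depends on the thresholds of the peak calling. The large and the small subunit had similar shares in WT. Of the large subunit genes 24 of 42 (57.1%, 42.2 to 70.9) had a WT peak and 20 (47.6%, 33.4 to 62.3) a Spen KO clone 3 peak. Of the small subunit genes 17 of 30 (56.7%, 39.2 to 72.6) had a WT peak and 13 (43.3%, 27.4 to 60.8) a Spen KO clone 3 peak.

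Other gene lists of the translation machinery had shares whose intervals overlap those of the ribosomal protein genes. Of 77 genes of the mitochondrial ribosome, 49 (63.6%, 52.5 to 73.5) had a WT peak and 39 (50.6%, 39.7 to 61.5) a Spen KO clone 3 peak. Of 19 autosomal genes of ribosome biogenesis, 12 had a WT peak and 14 a Spen KO clone 3 peak, and Fbl, the rRNA methyltransferase of the nucleolus, Nop58 and Ubtf had none. Of 20 other genes whose mRNAs start with a TOP tract, 13 had a WT peak and 12 a Spen KO clone 3 peak. Eef1a1, Eef1g, Npm1, Pabpc1 and Tpt1 were among those with a peak in both lists, while Eef2, Eef1b2, Eef1d, Eif3e, Btf3 and Fau were among those with none. Fau encodes a ribosomal protein joined to a ubiquitin-like protein and lies outside the naming rule.

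**Figure D1:**
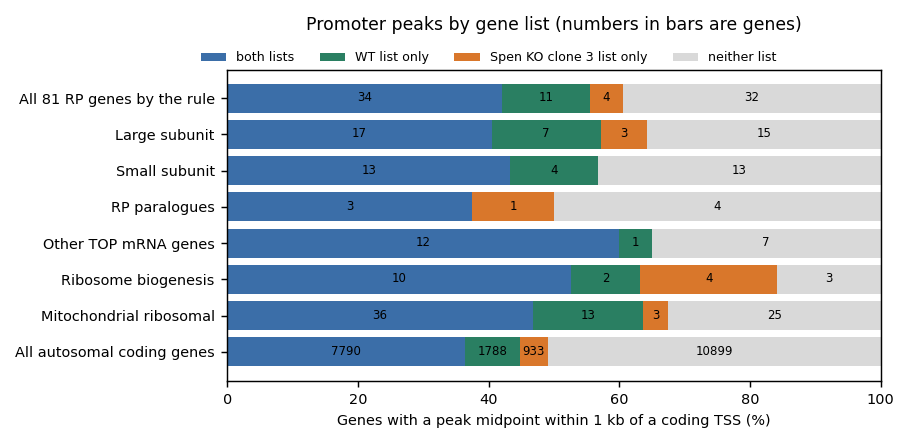
Share of genes (x axis, percent) with a promoter peak in both lists, in 1 list or in neither, for the 81 ribosomal protein (RP) genes and other gene lists (y axis), with gene counts in the bars. The RP genes have no promoter peak in 32 cases, and all autosomal coding genes in 10899.

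The genes without a promoter peak included proteins from the core of both subunits. In the large subunit they were Rpl3, which reaches towards the peptidyl transferase centre, Rpl8, Rpl10a, Rpl11, Rpl12, Rpl14, Rpl17, Rpl19, Rpl23, Rpl23a, Rpl32, Rpl35a, Rpl36, Rpl38 and the stalk protein gene Rplp2. In the small subunit they included Rps9, Rps12, Rps14, Rps15, Rps15a, Rps16, Rps18, Rps23, Rps24, Rps25, Rps27 and Rps28. The paralogues Rpl3l, a form of Rpl3 found in striated muscle, Rpl39l, Rpl7l1 and Rps4y2, the name here of Rps4l, also had none. No peak lay just beyond the limit at these genes. The nearest WT peak edge lay between 3009 bp (Rps14) and 51175 bp (Rps23) from a TSS of these 32 genes, with a median of 9246 bp. For the Spen KO clone 3 list the shortest distance was 2987 bp (Rps14) and the median 10952 bp.

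Only uniquely mapped reads were kept in making the lists, and ribosomal protein genes have many processed pseudogenes, so the copy number of the promoter sequence was measured. Of the 24-base sequences within 250 bp of the TSS, a median of 4.08% occurred more than once in the genome at the 32 genes without a peak (quartiles 2.04 and 9.78). At the 49 genes with a peak in either list the median was 3.97% (1.67 and 13.8). Over all coding genes it was 0% (upper quartile 5.02). No ribosomal protein gene reached 50%, and 8.20% of all coding genes did. The highest shares belonged to genes with peaks, 43.3% for Rps29 and 40.8% for Rpl37a. The part of read mapping in the missing peaks was not tested.

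Another coding gene starts within 1000 bp of a TSS at 15 of the 81 genes, on the opposite strand at 14 of them. The share of all coding genes with such a neighbour was not worked out. At 13 of the 15 genes the partner had the same state, and a peak near both starts counted for both genes. The 6 members without a peak that had such a partner were Rpl12 with Lrsam1 (33 bp), Rpl35a with Iqcg (235 bp), Rps18 with Vps52 (95 bp), Rps25 with Trappc4 (166 bp), Rps27 with Rab13 (44 bp) and Rps28 with Ndufa7 (29 bp). None of these partners had a promoter peak in either list. Rpl15 with Nkiras1 (69 bp), Rpl36al with Mgat2 (75 bp), Rpl9 with Lias (54 bp) and Rps27a with 1700034F02Rik (90 bp) had a peak in both lists whose midpoint lay within 1000 bp of both starts. Rpl18 with Sphk2 (69 bp) had its peak in the WT list only. Rpl7a with Med22 (87 bp) and Rpl4 with Zwilch (283 bp) had theirs in the Spen KO clone 3 list only. Rps2 and Rpl13a were the exceptions, since their partners Rnf151 and Flt3l had no promoter peak of their own. In both cases the member's peak lay at another TSS of the gene than the one beside the partner. Its midpoint was more than 1000 bp from any coding TSS of the partner.

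The 10 genes of the list that are mutated in Diamond-Blackfan anaemia, an inherited failure of red cell production, were spread over the lists. Rps19, Rps26, Rps7 and Rps10 had a peak in both lists, Rpl5 and Rpl26 in the WT list only, and Rps24, Rpl11 and Rpl35a were among those in neither. Rpl5 and Rpl11, whose proteins bind Mdm2 together with a ribosomal RNA and so stabilise p53, differed in that Rpl11 had no peak. The stalk that recruits the elongation factors is built from Rplp0, Rplp1 and Rplp2, and each had another state: both lists, Spen KO clone 3 list only, and neither. Of the genes with a known mouse mutant for a single ribosomal protein, Rpl24 (belly spot and tail) and Rpl27a (sooty foot ataxia) had a peak in both lists, Rps20 (a dark skin mutant) in the WT list only and Rpl38 (tail short) in neither.

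Each peak carries a value for either replicate, on a scale that is not named, and the mean of the 2 values is called the score here. Its percentile is the rank among all autosomal peaks of the same list, so that percentiles can be set side by side while raw values of different lists cannot. Member peaks spanned almost the whole range of ranks, from a percentile of 4.57 to 98.4 in WT and from 1.2 to 97.7 in Spen KO clone 3. The median percentile of the 46 WT member peaks was 58.5 (95% interval 43.4 to 66.0), beside 61.3 (60.3 to 62.3) for all 9132 autosomal coding promoter peaks. The median of the 40 Spen KO clone 3 member peaks was 44.4 (33.0 to 61.5), beside 58.4 (57.4 to 59.7) for all 8340 promoter peaks. In WT 63.0% of the member peaks ranked above a percentile of 50, and 61.7% of all coding promoter peaks did. In Spen KO clone 3 these shares were 37.5% and 57.9%.

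Rpl37, Rps29, Rpl15 and Rpl24 had the highest scores in both lists. Rpl37, a zinc-binding protein of the large subunit, had WT replicate values of 58.4 and 59.9 (percentile 98.4) and Spen KO clone 3 values of 46.7 and 44.8 (percentile 96.9). Rps29, a zinc-binding protein of the small subunit, had 53.4 and 53.5 in WT (97.6) and 48.9 and 50.1 in Spen KO clone 3 (97.7). Rpl15 of the large subunit had 52.0 and 58.0 in WT (97.8) and 49.0 and 44.7 in Spen KO clone 3 (97.2). The ranks of these 3 genes differed by less than 2 points between the lists. Rpl24, a large subunit protein at the subunit interface, had 46.7 and 40.6 in WT (94.3) and 56.0 and 40.3 in Spen KO clone 3 (97.4). Rpl34 and Rpl27 of the large subunit came next by the mean of both lists, with percentiles of 88.9 and 84.5 in WT and 85.3 and 89.2 in Spen KO clone 3. Rps13, Rps27a, which is made as a fusion with ubiquitin, and Rpl36al, the autosomal paralogue of Rpl36a, also ranked high, with WT percentiles of 83.1, 85.4 and 84.8. In Spen KO clone 3 they were at 83.3, 67.8 and 75.9.

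At the other end, Rps7 had the lowest ranks of the genes found in both lists. Its replicate values were 9.63 and 9.08 in WT (percentile 4.57) and 8.19 and 7.92 in Spen KO clone 3 (2.68). Rpl37a, a zinc-binding large subunit protein like Rpl37, had 13.2 and 13.2 in WT (16.4) and 7.92 and 10.9 in Spen KO clone 3 (7.25). Both genes ranked low in all 4 replicates. Rpl22, which is needed for T cell development, had 11 and 12.5 in WT (11.4) and 19.3 and 12.9 in Spen KO clone 3 (39.8). Rps6, the small subunit protein phosphorylated downstream of mTOR, was at 28.1 and 31.0, Rpl9 at 34.5 and 26.3, and Rpl31 at 23.4 and 41.6.

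**Figure D2:**
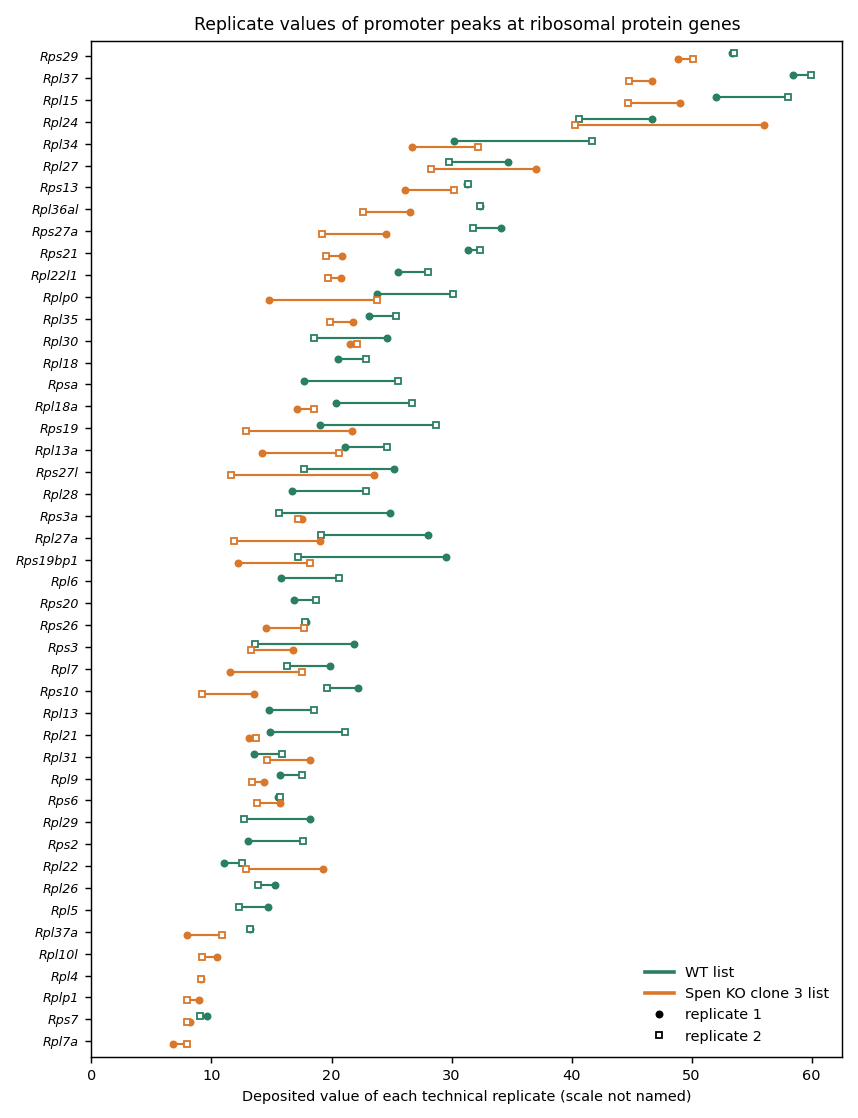
Deposited value of each technical replicate (x axis, scale not named) for the highest-scoring promoter peak of the RP genes reported by name (y axis, ordered by mean percentile). Values of the same list can be compared between genes, and values of different lists cannot. Rpl37, Rps29, Rpl15 and Rpl24 have the highest mean of the replicate values in both lists, with Rpl34 next in WT and one of its WT replicates, at 41.7, above the lower WT replicate of Rpl24, at 40.6, while Rps7 lies lowest in WT and Rpl7a in Spen KO clone 3.

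The 11 genes found in the WT list only held 11 peaks, 23.9% (13.9 to 37.9) of the 46 WT member peaks, and 20.7% of all coding promoter peaks in WT had no overlapping peak in the other list. Their WT percentiles ran from 17.6 to 59.8, with a median of 41.7, beside 25.8 for all 1788 coding genes with a peak in the WT list only. Rpl18 of the large subunit had replicate values of 20.5 and 22.9 (59.8). Rpsa, the small subunit protein also known as the laminin receptor precursor, had 17.7 and 25.5 (59.5). The peaks of both genes ranked above the middle of the WT list and had no counterpart in the other. Rpl28, a large subunit protein, had 16.7 and 22.9 (51.9). Rpl6 had 15.8 and 20.6 (44.2), and Rps20 had 16.9 and 18.7 (41.7). Lower ranks were held by Rpl13 (34.8), Rpl29 (27.4), Rps2 (26.6), Rpl26 (22.9) and Rpl5 (17.6), the last with replicate values of 14.7 and 12.3. The nearest Spen KO clone 3 peak was between 1204 bp (Rpl18) and 37954 bp (Rpl26) from a TSS, with a median of 15266 bp.

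The 4 genes whose promoter peak was called in Spen KO clone 3 but not in WT held 4 of its 40 member peaks (10%, 3.96 to 23.1), beside 13.0% of all coding promoter peaks in that list. All 4 ranked low, with percentiles between 1.2 and 8.71 and a median of 5.03, beside 14.3 for all 933 coding genes of this kind. Rpl10l, the testis form of the X-linked gene Rpl10, had replicate values of 10.5 and 9.21 (8.71). Rplp1 of the stalk had 9 and 7.98 (4.01), and Rpl7a of the large subunit had 6.80 and 7.92 (1.2). Rpl4, whose protein lines the exit tunnel, had 9.11 and 9.15 (6.05). Its peak was centred 591 bp before the TSS of Rpl4, on the side of Zwilch, and did not reach that TSS. The nearest WT peak was at least 5344 bp away at these genes (Rpl4).

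Member peaks were narrower than other promoter peaks in both lists. The median width was 536 bp in WT (95% interval 495 to 597) and 496 bp in Spen KO clone 3 (411 to 529), beside 639 bp (633 to 644) and 608 bp (603 to 614) for all coding promoter peaks. In WT 37 of 46 member peaks were below the median of all promoter peaks, and in Spen KO clone 3 33 of 40 were. Peaks of the mitochondrial ribosomal genes had medians of 582 bp (551 to 624) and 550 bp (487 to 591). The widest WT peak was at Rpl7, a large subunit gene, at 1175 bp. In Spen KO clone 3 the same region held 2 peaks of 613 and 382 bp. Rps27l, a p53-induced paralogue of Rps27, followed in WT with 881 bp (551 bp in Spen KO clone 3), and Rps19 with 861 bp (677 bp). The narrowest WT peaks were at Rps26 (337 bp), Rps7 (358 bp) and Rpl6 (365 bp). Rps26 was narrow in Spen KO clone 3 too, at 343 bp, whereas Rps7 was 528 bp wide there. Among the 34 paired genes 24 (70.6%) had a narrower peak in Spen KO clone 3, as did 64.4% of all 7666 paired coding genes.

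Most member peaks lay over the TSS. The midpoint of the highest-scoring WT peak was a median of 62 bp upstream of the representative TSS. For all 46 WT peaks the quartiles were -148 and 9.5 bp relative to the TSS, and 40 peaks covered the TSS. In Spen KO clone 3, 32 of 40 peaks covered it. Rps26 and Rpl35 departed from this, as did Rpl4 in Spen KO clone 3, described above. The Rps26 peak was wholly upstream, with its midpoint at -328 bp in WT and -320 bp in Spen KO clone 3. The Rpl35 peak was wholly inside the gene, centred 411 bp and 372 bp after the TSS. The representative TSS of Rpl13a belongs to a long transcript that starts far upstream, and its WT peak covered the nearest coding TSS, with the midpoint 218 bp before it. Rpl24 had a further peak inside the gene in both lists, centred 810 bp after the TSS in WT (percentile 57.6) and 762 bp after it in Spen KO clone 3 (37.9). The WT peak of Rpl7 and both of its Spen KO clone 3 peaks also lay within 1000 bp of a TSS of Rdh10, a retinol dehydrogenase.

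**Figure D3:**
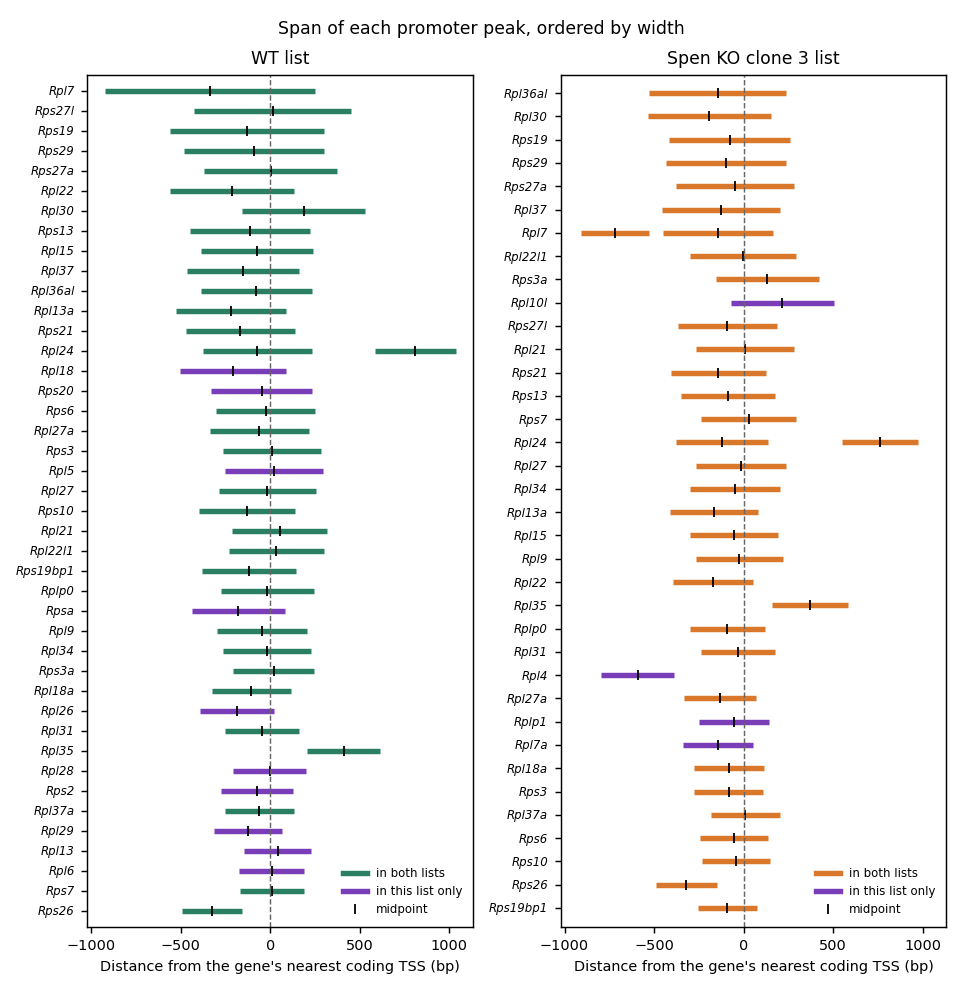
Start, end and midpoint of each promoter peak relative to the nearest coding TSS of its gene (x axis, bp, negative is upstream), for the WT list (left) and the Spen KO clone 3 list (right), with genes reported by name on the y axis ordered by width. Peaks cluster on the TSS in both lists, with Rps26 and, in Spen KO clone 3, Rpl4 upstream, and Rpl35 inside the gene. There are further peaks at Rpl24 and, in Spen KO clone 3, Rpl7.

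For the 34 genes whose peaks in both lists overlap, the rank shift is the percentile in Spen KO clone 3 minus that in WT. It was negative at 25 genes (73.5%), and 63.3% of the 7666 paired coding genes ranked lower in Spen KO clone 3. The median shift was -8.33 points (95% interval -16.0 to -1.53), beside -2.79 (-3.15 to -2.54) for all paired genes, a value within the interval of the members. Other settings moved the members' median, and most of them also moved that of all paired genes. With the longer list cut to the length of the shorter by score, the median shift was -10.7 (-17.8 to -1.64), beside -3.74 for all paired genes. Without replicate 1 the median shift was -4.18 (-16.8 to 1.81), beside -3.1 for all paired genes, and without replicate 2 it was -4.02 (-14 to -0.181), beside -2.04. With percentiles taken among coding promoter peaks it was -3.47 (-12.2 to -0.671), beside -1.76. Without the paralogues and Rps19bp1 it was -5.16 (-16 to -0.616), beside -2.79 for all paired genes, which this setting leaves as it was. The size of the shift thus depended on the setting, and the median of all paired genes lay within the members' interval each time. Both Spen KO clone 3 replicates ranked below both WT replicates at 10 genes (29.4%), as at 29.5% of all paired coding genes, and above both at 1 gene (2.94%, beside 12.9%). At the other 23 genes the replicate ranks of the lists overlapped. With 1 list per line no test between the lines was made.

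The largest falls in rank included those at Rps10, Rps19bp1, Rpl27a and Rps21. Rps10 of the small subunit had WT replicate percentiles of 59.2 and 52.3 and Spen KO clone 3 replicate percentiles of 25.3 and 7.19, and its score percentile fell by 42.4 points. Rps21 had 81.4 and 85.1 in WT and 62.8 and 59.3 in Spen KO clone 3 (-22.4). The replicate ranks of both genes did not overlap between the lists. They did at Rps19bp1, with 77.9 and 42.3 in WT and 18.0 and 53.3 in Spen KO clone 3 (-31.6), and at Rpl27a, with 75.2 and 50.5 against 55.6 and 18.8 (-30.6). Other genes whose replicates did not overlap and were lower in Spen KO clone 3 included Rpl22l1, Rpl36al, Rpl37, Rpl37a, Rpl9, Rps27a and Rps7. Rises were fewer. Rpl22 had replicate percentiles of 11.2 and 15.6 in WT and 56.5 and 24.1 in Spen KO clone 3 (28.4), and it was the gene whose replicates were all higher in Spen KO clone 3. Its paralogue Rpl22l1, which can take its place in the ribosome, had 69.4 and 78.2 in WT and 62.6 and 59.8 in Spen KO clone 3 (-12.9). Rpl31 rose by 18.2 points, Rpl30 by 8.43, Rpl27 by 4.75 and Rpl24 by 3.19, with replicate ranks that overlapped. Rps3, a small subunit protein at the mRNA entry, was at 41.4 and 33.0, and Rplp0, the base of the stalk, at 74.9 and 57.8, and the replicate ranks of both overlapped.

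**Figure D4:**
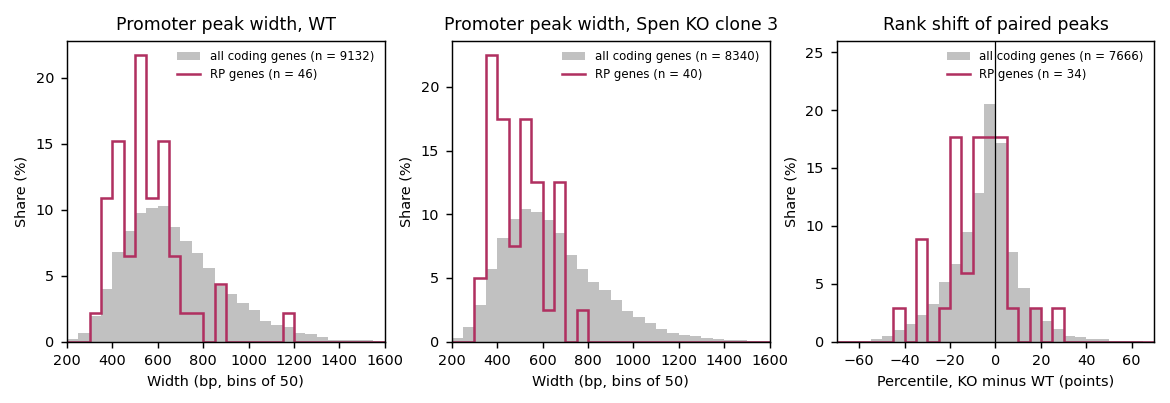
Widths of promoter peaks in WT (left) and Spen KO clone 3 (centre; x axes in bp) and rank shifts of paired peaks (right; x axis in percentile points, Spen KO clone 3 minus WT), as shares of peaks or genes (y axes, percent), with RP genes as a line and all autosomal coding genes in grey. RP gene peaks have median widths of 536 and 496 bp, beside 639 and 608 bp, and their shifts have a median of -8.33, beside -2.79 for all coding genes.

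The promoter sequence was described apart from the peaks. The ETS core CCGGAAG was searched on both strands from 250 bp before to 50 bp after the representative TSS, and 27 of 81 members (33.3%, 24.0 to 44.1) held it, beside 11.1% of all coding genes. Of members with a peak in both lists 14 of 34 (41.2%, 26.4 to 57.8) held it, and of members with no peak 8 of 32 (25%, 13.3 to 42.1). Among all coding genes with a peak in either list the share was 17.6%, and among mitochondrial ribosomal genes 36.4% (26.5 to 47.5). The YY1 motif GCCATCTT, searched in the same way, was held by 6 members (7.41%, 3.44 to 15.2), of which 5 had no peak (Rpl23a, Rpl35a, Rpl7l1, Rps15a and Rps27) and Rpl18 had one in WT only, beside 3.41% of all coding genes. The SP1 box GGGCGG was found at 53.1% (42.3 to 63.6) of members and at 45.0% of all coding genes. With a peak in either list it was found at 55.1% of members (41.3 to 68.1) and at 67.3% of coding genes, a value within the members' interval, and over 500 bp before to 100 bp after the TSS at 75.5% and 75.4%. The NRF1 motif GCGCATGC was found at 4.94% of members and 3.34% of all coding genes. No motif searched contains the letters of another on either strand.

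A pyrimidine run of at least 8 bases reaching to within 10 bases of the TSS was present at 30 of 81 members (37.0%, 27.3 to 47.9) and at 13.5% of all coding genes. It was present at 15 of 32 genes without a peak (46.9%, 30.9 to 63.6), at 8 of 34 with a peak in both lists (23.5%, 12.4 to 40) and at 5 of 11 found in WT only. The run of 8 or more was not a planned measure. The planned reading was C or T at the first base and pyrimidines at 5 or more of the next 7. It held at 9 members (11.1%, 5.96 to 19.8) and at 8.48% of all coding genes. At 18 members (22.2%, 14.5 to 32.4) the annotated first base was C, beside 15.7% of all coding genes. The annotated TSS can differ from the true start by some bases, which bears on these counts. The motif CTTTCC within 50 bp of the TSS on the sense strand was found at 11 members (13.6%, 7.76 to 22.7) and at 4.27% of all coding genes. TATAAA within 50 bp before the TSS was found at no member and TATAAG at 3, Rpl23a, Rps26 and Rps27, beside 3.17% and 1.32% of all coding genes.

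Members with a peak in both lists had a median GC content of 59.1% in this window (quartiles 53.1 and 62.4) and those with none 54.8% (51.7 and 56.5), beside 55.8% for all coding genes and 61.8% for those with a peak in either list. The median ratio of observed to expected CpG was 0.883 for members with a peak in both lists and 0.788 for those with none, beside 0.562 over all coding genes. It was 0.928 for members in the WT list only and 1.08 for the 4 in the Spen KO clone 3 list only. Coding genes with a peak in either list had 0.77, below the members with none, so the ratio did not follow the presence of a peak. The 11 genes found in the WT list only had a median GC content of 58.1% and the 4 with a peak in Spen KO clone 3 alone 54.8%, the same as those with none. GC content was thus higher at members with a WT peak, and its part in the result was not tested.

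**Figure D5:**
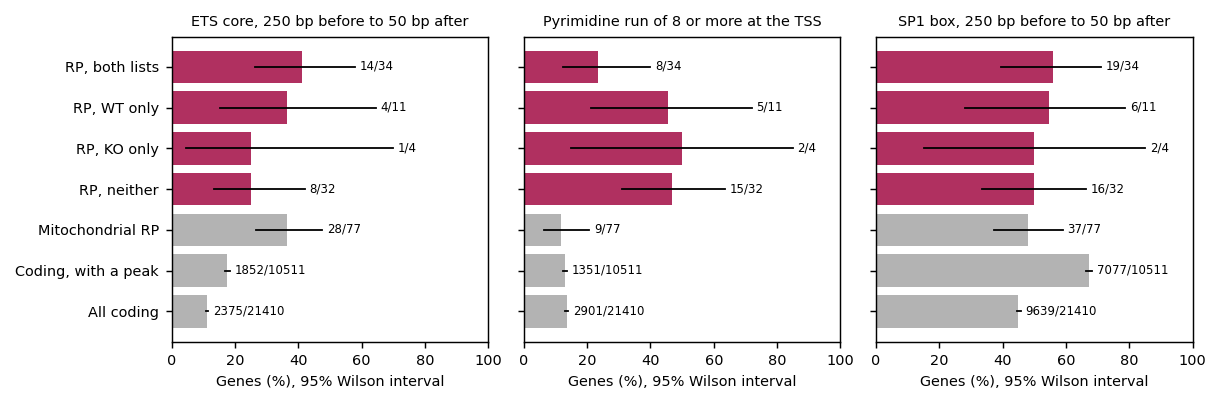
Share of genes (x axis, percent, with 95% Wilson intervals as lines and counts as text) that hold the ETS core, a pyrimidine run of 8 or more at the TSS, or the SP1 box, for RP genes by presence in the lists and for other gene sets (y axis). The ETS core and the pyrimidine run are found in RP genes without a peak too, at 8 and 15 of 32.

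Processed pseudogenes, which are copies of the mRNAs without the promoters, had peaks about as often as other pseudogenes in WT. Of 86 autosomal pseudogenes with a ribosomal protein name and -ps, 3 (3.49%, 1.19 to 9.76) had a peak within 1000 bp of their 5′ end in WT, Rpl10-ps2, Rpl9-ps3 and Rps2-ps9, beside 3.77% of all 4063 autosomal pseudogenes. In Spen KO clone 3 it was 1 (1.16%, 0.206 to 6.30), Rps2-ps9, beside 3.49%. No peak of either list overlapped an annotated pseudogene of this set.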

How the data were processed

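Haploid mESCs of HATX WT and Spen KO clone 3 were profiled by ATAC-seq, with 2 replicates per line that the study's methods call technical. Per the study's methods, the authors removed adapters (CutAdapt), aligned to mm9 (Bowtie2), retained unique properly paired alignments without Picard duplicates, called peaks with MACS2 on each replicate and filtered them by the Irreproducible Discovery Rate (IDR). For each peak the authors deposited its coordinates, its length in bp and a joined field with a score of each replicate and the IDR. The scale of the replicate scores is not named and tool versions for the ATAC-seq steps are not given in the sources used here.

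Coordinates were read as counted from 1, since each length equals end minus start plus 1. Peaks on chromosomes 1 to 19 were assigned to coding TSSs of the GENCODE annotation for mm9 by midpoint, within 1000 bp, and an overlap of at least 1 bp counted as shared. Where a gene had several peaks, the highest-scoring one gave its rank. Copies of 24-base sequences were counted over the whole genome on either strand. Intervals are at the 95% level, Wilson's for shares and order-statistic binomial ones for medians. The lines were not tested against each other, since each has 1 list. Overlap, TSS assignment, percentiles and copy counts were tested on simulated data. The members, lists and alternatives were chosen with earlier results of these data known. Named genes were those without a peak or in 1 list only, the 6 highest and 6 lowest in mean rank, the 5 largest shifts in either direction, the 3 widest and 3 narrowest WT peaks, genes with more than 1 peak, and genes picked for their role. Some of these are not reported here by name and are left out of the plots of single genes, while all counts and medians include them. Calculations used Python, numpy, pandas, scipy, numba and matplotlib (versions 3.11.15, 2.4.6, 2.3.3, 1.17.1, 0.67.0 and 3.10.9).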

Additional observations from a re-analysis of the deposited data

How the results depend on the processing

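Of 69 alternatives, 62 left a count within 1.5 times its main value, or a median or share within the 95% interval of its main value. These intervals are wide, and the median rank shift, -8.33 as reported, ran from -10.7 with both lists cut to the same length to -3.47 with percentiles among coding promoter peaks, beside -3.74 and -1.76 for all paired coding genes. With only peaks at or above the median score of their list, 28 genes had a WT peak in place of 45, 15 a Spen KO clone 3 peak in place of 38, and 53 had none in place of 32. The shares of all coding genes under this cut were not worked out. Of all coding promoter peaks, 61.7% in WT and 57.9% in Spen KO clone 3 ranked above a percentile of 50. With a pyrimidine start at any coding TSS of a gene, 29.6% of members qualified in place of 11.1%. The share of all coding genes under this setting was not worked out, and a gene with more TSSs has more ways to qualify. Counting any part of a peak over a pseudogene gave 0 WT pseudogenes in place of 3. Over 500 bp before to 100 bp after the TSS the SP1 box was held by 69.1% of members, beside 51.4% of all coding genes. Within 100 bp of the TSS in place of 50, chosen after seeing the data, CTTTCC was held by 25.9%, beside 8.38%, and TATAAG, searched before the TSS, by 7.41%, beside 1.88%. From 1 replicate alone, the median percentile ran from 52.3 to 58.7 in WT and from 47.1 to 49.4 in Spen KO clone 3, and the median rank shift from -4.18 to -4.02. Leaving out members with 50% or more of their promoter 24-base sequences in multiple copies, an alternative chosen after seeing the data, removed no gene. Its unchanged counts are among the 62 but could not have differed, so they are no check. The read depth is unknown, so a missing peak shows only that none was called. No paired analysis was possible because each line has 1 list and no source says that replicates in the same position of the lists belong together. Leaving out a replicate sets the remaining positions side by side without taking them as pairs.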

Other observations

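The 4 ribosomal protein genes on the X chromosome lie outside the naming rule, and their peaks were ranked among autosomal peaks. Rpl36a had replicate values of 28.5 and 26.4 in WT (percentile 76.0) and 23.6 and 26.3 in Spen KO clone 3 (76.8). Rpl10 had 18.8 and 22.3 in WT (55.3) and 20.3 and 14.5 in Spen KO clone 3 (47.7). Rpl39 had a peak in Spen KO clone 3 only, with 24.6 and 19.9 (69.2), and Rps4x had none in either list. Per the study, Xist induction by doxycycline lowered accessibility at most X chromosome sites in WT and at none reproducibly in Spen KO. The doxycycline state of the lists is not stated, and its part at these X-linked genes was not tested.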
